A study of Mus musculus with 18 samples.

Results

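The 10 genes described here mark macrophages and the major histocompatibility complex (MHC) class II pathway: Cd74, H2-Aa, H2-Ab1, H2-Eb1, Ciita, Cd68, Adgre1, Csf1r, Mrc1 and Lyz2. They were chosen by name, and all 10 were found among the 23420 genes of the RNA-seq table, Adgre1 under its older symbol Emr1. The samples were hindlimb skeletal muscles of untreated female C57BL/6J mice aged 2 months (young, 2 m), 20 months (aged, 20 m) and 28 months (superaged, 28 m), with RNA sequenced from 3 mice per age, 1 library per mouse. DNA of the 3 mice of an age was pooled and captured with a methyl-CpG-binding domain (MBD-seq), from muscle and from T cells of the spleen, so that each age was a single pool in that assay. The study followed DNA methylation and transcription in muscle across this lifespan. RNA values are normalized read counts, that is, reads per gene divided by a size factor for the library.

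Class II molecules are pairs of an alpha and a beta chain on the surface of antigen-presenting cells, where they show peptides from engulfed proteins to CD4 T cells. The invariant chain Cd74 escorts new chains out of the endoplasmic reticulum and fills their groove until it is digested in the endosome. Ciita, the class II transactivator, binds no DNA itself and is recruited by factors that sit on the conserved X and Y boxes of class II promoters; interferon gamma induces it. In skeletal muscle the cells that carry class II are chiefly macrophages and dendritic cells of the connective tissue between the fibres. C57BL/6 mice carry a defective H2-Ea gene, so they make the H2-A pair but no complete H2-E pair.

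Total reads on genes ranged from 20203833 to 71115244 per library, and genes of muscle fibres (7 listed) summed to between 4881290 and 6259530 normalized counts. The libraries numbered 3 stood apart from those numbered 1 and 2 at every age: the ribosomal RNA entry Rn45s took 8.81% to 10.4% of their normalized counts, against 24.0% to 30.4% in the other 6. The 2-m library 1 stood apart in another way, with 6165 summed normalized counts for 9 neutrophil and marrow genes, against 35.5 to 167 in the other 8 libraries. Results of the 10 genes are therefore also given without it and within the libraries numbered 1 and 2. For the other genes named, calls lost in these settings are given. In bulk muscle, fewer cells of a type and less RNA per cell cannot be told apart.

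**Figure D1:**
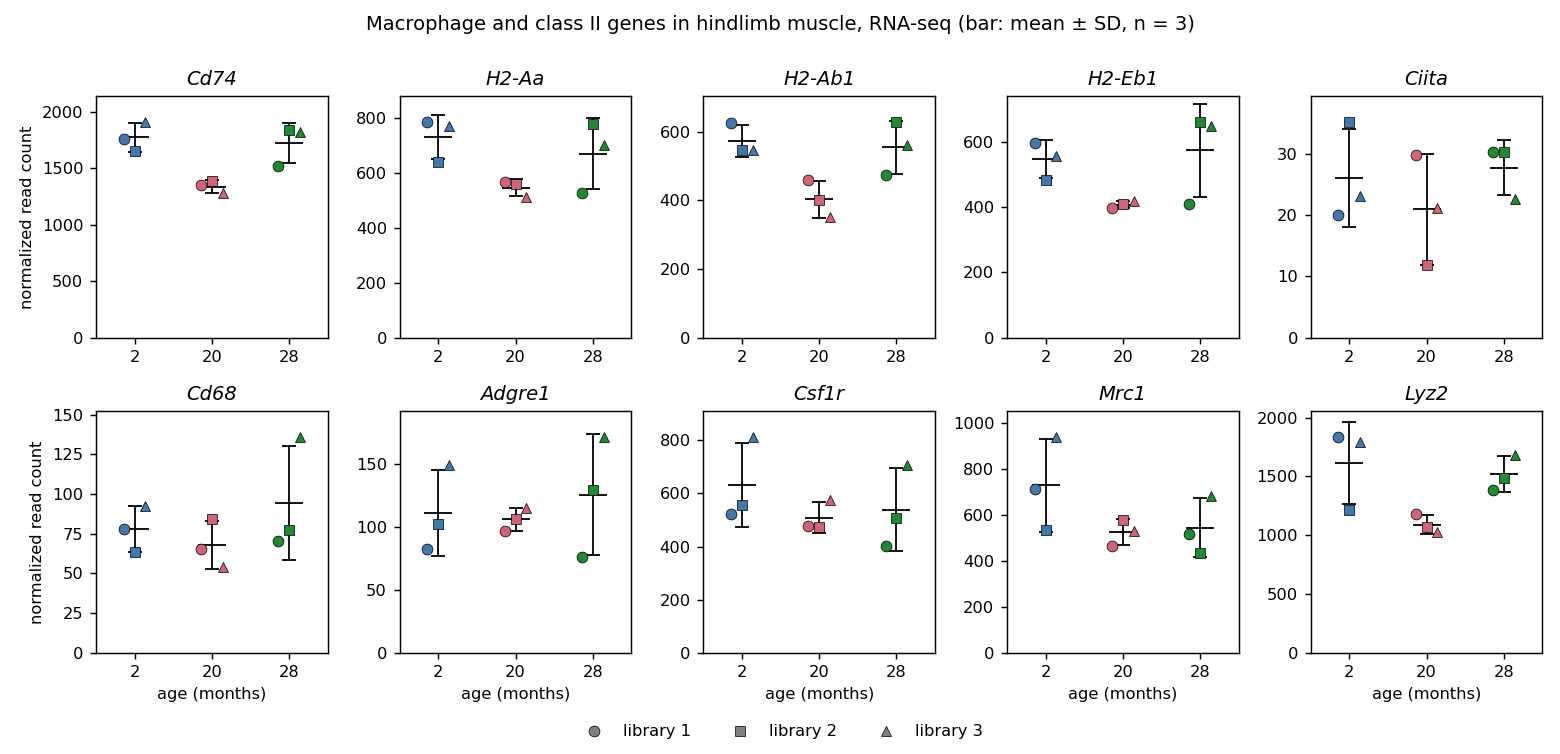
Normalized read counts (y axis, from 0, a scale of its own for each gene) of the 10 genes by age in months (x axis), with 1 point per library, its shape giving the library number, and bars for the mean and SD of 3 mice. In Cd74, H2-Aa, H2-Ab1, H2-Eb1 and Lyz2 every 20-m library lies below every 2-m library, while in Csf1r and Adgre1 the library numbered 3 is the highest at each age.

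Cd74, H2-Ab1 and Lyz2 fell between 2-m and 20-m muscles, by 24.5%, 29.8% and 31.4% in turn as back-transformed log2 fold changes, so that 3 of the 10 genes fell, 0 rose and 7 did not pass the test. On the same scale their 28-m levels were 2.89%, 3.75% and 4.50% below the young ones. Over all 13178 genes tested, 16.6% passed in this comparison (7.13% lower, 9.42% higher). By the same test, limma at an adjusted p under 0.05, 0 of the 10 passed between 28 m and 2 m, where 13.8% of all genes did (6.24% lower, 7.53% higher). Between 28 m and 20 m, 0 of the 10 passed as well, where 0.379% of all genes did (0.167% lower, 0.212% higher). At an unadjusted p under 0.05, 6 of the 10 differed between 20 m and 2 m, 0 between 28 m and 2 m, and 4 between 28 m and 20 m, when 4153, 3710 and 1396 of the 13178 genes did.

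Cd74, the invariant chain, had 1761, 1651 and 1910.2 normalized counts in the 2-m libraries 1, 2 and 3. The 20-m libraries held 1349, 1389 and 1277, and the 28-m libraries 1520.0, 1835 and 1823. Every 20-m value was below every value of the other ages, while the 2-m and 28-m ranges overlapped. From 2 m to 20 m Cd74 fell by 0.40 on the log2(count + 1) scale (95% CI -0.61 to -0.20, limma adjusted p = 0.0130). The 28-m mean of 1726 ± 179 (SD, n = 3) lay beside the 2-m mean of 1774 ± 130 (log2 difference -0.042, 95% CI -0.25 to 0.16). Against 20 m it was higher by 0.36 (95% CI 0.16 to 0.57), which did not pass after adjustment over all genes (limma adjusted p = 0.153). Cd74 kept its call between 20 m and 2 m in each of the 9 fits that left out a library, with adjusted p between 0.00902 and 0.0477.

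H2-Ab1, the beta chain of the H2-A pair, lies on chromosome 17 (GRCm38, chr17:34263227-34269418, plus strand). Its 2-m libraries held 626, 548 and 546 normalized counts, its 20-m libraries 459.5, 399.9 and 351, and its 28-m libraries 473, 628 and 562. As with Cd74, all 20-m values were the lowest of the 9. The fall from 2 m to 20 m was 0.51 on the log2 scale (95% CI -0.81 to -0.21, limma adjusted p = 0.0246), a call kept in 6 of the 9 fits that left out a library and lost without the 2-m library 1, the 20-m library 2 or the 20-m library 3. The 28-m mean was 554 ± 78.2, and 28 m exceeded 20 m by 0.46 (limma adjusted p = 0.233).

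H2-Aa, the alpha chain that pairs with H2-Ab1 (chr17:34282744-34287823, minus strand), had 785, 638 and 769 normalized counts at 2 m and 568, 558 and 510.5 at 20 m. At 28 m its libraries held 526, 778 and 702, so the 28-m mouse of library 1 lay among the aged values and the other mice among the young ones. The 20-m values again lay below all 2-m values, at a difference of -0.42 on the log2 scale (95% CI -0.73 to -0.11), but the adjusted p of limma was 0.0650.

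H2-Eb1, the beta chain of the incomplete H2-E pair (chr17:34305867-34316674, plus strand), gave 597, 483 and 557 normalized counts at 2 m, and 396, 408 and 417 at 20 m. The 28-m library 1 held 409.9, among the aged values, while the 28-m libraries 2 and 3 held 660.1 and 649, above all young values. The difference between 20 m and 2 m was -0.42 on the log2 scale (95% CI -0.78 to -0.05, limma adjusted p = 0.108). H2-Ea, listed as the pseudogene H2-Ea-ps, was at 0 in all 9 libraries.

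Ciita, the transactivator, was scarce, with 11.8 to 35.2 normalized counts per library from 7 to 39 reads. Its libraries held 20.1, 35.2 and 23.1 at 2 m, 29.9, 11.8 and 21.2 at 20 m, and 30.4, 30.4 and 22.6 at 28 m. The ages overlapped, and the interval of the difference between 20 m and 2 m, -1.33 to 0.62 on the log2 scale, held both no difference and the falls seen for Cd74 and H2-Ab1. A fall of that size in Ciita could therefore not be told from no change.

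Class II promoters carry the boxes on which the factors that recruit Ciita sit, and those of H2-Aa and H2-Eb1 were in the RefSeq promoter table used here (GRCm38.p6), as were those of Cd68, Mrc1 and Lyz2. The promoters of Cd74, H2-Ab1, Ciita, Adgre1 and Csf1r were not analysed here. The 150 bases before each start are shown 5′ to 3′ on the strand of the gene, for H2-Aa (chr17:34287824-34287973, minus strand) and H2-Eb1 (chr17:34305717-34305866, plus strand) as the class II pattern, and for Lyz2 (chr10:117282273-117282422, minus strand), a macrophage gene whose RNA also fell at 20 m, for comparison. Capitals mark matches, on either strand, to the letters CTNGCAAC (core of the X box), TGACGTCA (X2 box), CTGATTGG (Y box) and GAGGAA (core of PU.1 sites), which were picked with these sequences in view.
H2-Aa: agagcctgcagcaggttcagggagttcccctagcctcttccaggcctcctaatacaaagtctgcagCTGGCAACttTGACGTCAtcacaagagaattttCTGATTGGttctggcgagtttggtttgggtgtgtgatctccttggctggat
H2-Eb1: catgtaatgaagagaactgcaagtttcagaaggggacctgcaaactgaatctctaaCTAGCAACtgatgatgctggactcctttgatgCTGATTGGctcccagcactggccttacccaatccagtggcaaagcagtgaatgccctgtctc
Lyz2: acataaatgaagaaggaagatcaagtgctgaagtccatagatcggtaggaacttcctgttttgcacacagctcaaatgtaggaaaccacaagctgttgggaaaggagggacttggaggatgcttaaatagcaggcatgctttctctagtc

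In H2-Aa the X core began at base -84 from the start and the Y box at base -51, with the X2 letters between them at base -74. In H2-Eb1 the X core began at base -94 and the Y box at base -62. Over the 250 bases before 27025 gene starts, 2.93% of promoters held the X core letters, 1.62% the X2 letters, 4.07% the Y letters and 23.1% the PU.1 letters, and no match in one of these motifs overlapped another in the genes shown. An X core followed by a Y box on the same strand was found in 14 promoters (0.0518%), H2-Aa and H2-Eb1 among them. The Lyz2 window held none of the 4. Within 250 bases, Cd68 had 1 PU.1 match and Mrc1 had 3.

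Per kilobase of the longest GENCODE transcript, Cd74 (1144 normalized counts per kb, mean of 9 libraries) and Lyz2 (1069) were the most abundant of the 10. H2-Ab1 (421), H2-Eb1 (305) and H2-Aa (201.1) followed, then Csf1r (119), Mrc1 (111), Cd68 (65.1), Adgre1 (35.4) and Ciita (4.16). The ranges of neighbours in this order overlapped over the 9 libraries, apart from Lyz2 and H2-Ab1 (from 778 up against 518 down) and from Adgre1 and Ciita (from 23.4 up against 5.87 down). The longest transcript need not be the one these cells make, so the order among the 3 chains is approximate.

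Among the macrophage genes, Lyz2, the secreted lysozyme of macrophages and neutrophils, was the one that fell. It had 1834, 1212 and 1791 normalized counts at 2 m, 1179, 1065 and 1024 at 20 m, and 1385, 1487 and 1684 at 28 m. The 20-m libraries lay below all others, if narrowly below the 2-m library 2. Lyz2 fell by 0.54 on the log2 scale from 2 m to 20 m (95% CI -0.85 to -0.23, limma adjusted p = 0.0221). This call was kept in 5 of the 9 fits that left out a library and lost without the 2-m library 1, which was rich in neutrophil genes, the 2-m library 3, the 20-m library 2 or the 20-m library 3. The 28-m mean of 1519 ± 152 lay beside the 2-m mean of 1613 ± 347 (log2 difference -0.066, 95% CI -0.38 to 0.24). Its paralog Lyz1, with which reads can be shared, had 51.2 to 222 normalized counts.

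The other macrophage genes did not pass in any comparison. Csf1r, the receptor for the growth factors Csf1 and Il34 on which macrophages depend, had 524, 557 and 813 normalized counts at 2 m, 478, 472 and 576 at 20 m, and 402, 508 and 708 at 28 m. Library 3 was the highest at each age, and the ages overlapped throughout (20 m against 2 m, -0.29 on the log2 scale, 95% CI -0.73 to 0.15). Mrc1, the mannose receptor CD206 of resident macrophages, had 713, 532 and 939 at 2 m, 465, 577 and 531 at 20 m, and 516, 432 and 683 at 28 m. The ages overlapped, and its difference from 2 m was -0.44 on the log2 scale at 20 m (95% CI -0.87 to -0.01, limma adjusted p = 0.153) and -0.41 at 28 m (95% CI -0.84 to 0.03, limma adjusted p = 0.206).

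Cd68, a lysosomal membrane protein of phagocytes, had 78.0, 63.4 and 92.4 normalized counts at 2 m, 65.4, 84.4 and 53.9 at 20 m, and 70.2, 77.3 and 136 at 28 m. One library, the 28-m library 3, held the highest value, and the ages overlapped otherwise. Adgre1, the surface protein F4/80, had 82.5, 102 and 149 at 2 m, 97.1, 106 and 116 at 20 m, and 75.9, 129.8 and 172 at 28 m. Its difference between 20 m and 2 m was -0.026 on the log2 scale (95% CI -0.67 to 0.62). As in Csf1r, library 3 was the highest at every age, which held for 8.64% of all genes tested.

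**Figure D2:**
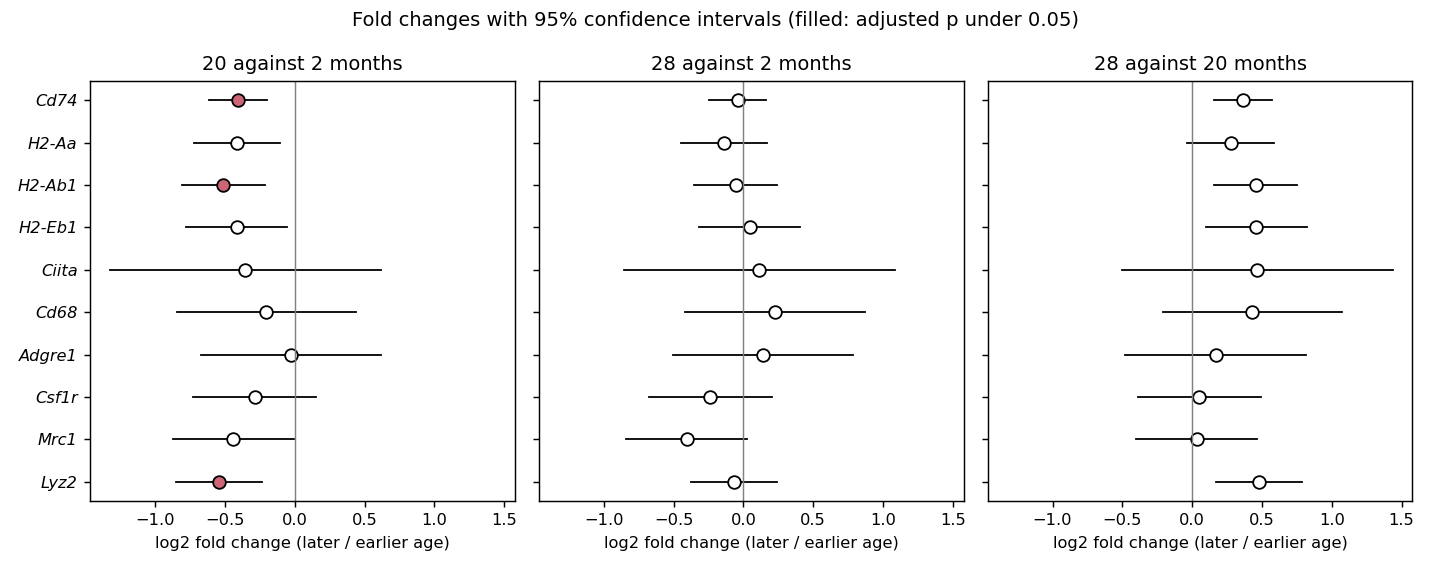
Log2 fold changes (x axis, later over earlier age, log2(count + 1) scale) of the 10 genes (y axis) with 95% confidence intervals in each of 3 comparisons; filled points passed at an adjusted p under 0.05. In the first panel the intervals of Cd74, H2-Aa, H2-Ab1, H2-Eb1, Mrc1 and Lyz2 lie below 0 with Cd74, H2-Ab1 and Lyz2 filled, and in the second all 10 intervals include 0.

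As a group, the 10 genes had their lowest mean at 20 m in 10 of 10 cases, which held for 32.7% of all genes tested. All 10 log2 fold changes between 20 m and 2 m were below 0, as were 52.1% of those of all genes, with a median of -0.41 against -0.017 over all genes. In 5 of the 10 (Cd74, H2-Aa, H2-Ab1, H2-Eb1 and Lyz2) the 20-m libraries lay wholly below the 2-m libraries, which held for 17.6% of all genes. Between 28 m and 2 m, 6 were below 0, against 51.5% of all genes. Between 28 m and 20 m all 10 were above 0, when 50.6% of all genes were below (median 0.40, all genes -0.0026), with 3 of 10 wholly above (Cd74, H2-Ab1 and Lyz2), against 8.63% of all genes, and 0 wholly below, against 8.84%. In these 3 genes the 20-m libraries lay below those of both other ages without overlap, as in 3.38% of all genes. The comparisons share the 20-m libraries, so the later rise is not a second, separate result.

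Some of these directions and calls depended on single libraries. Within the libraries numbered 1 and 2 alone, 8 of 10 differences between 20 m and 2 m stayed below 0, and those of Cd68 (0.077) and Adgre1 (0.14) turned. The class II genes kept differences of -0.32 (Cd74), -0.33 (H2-Aa), -0.45 (H2-Ab1) and -0.42 (H2-Eb1), but with 2 mice per age none passed (0 of 10, of 1099 genes that did). Within the libraries numbered 3, with 1 mouse per age and no test, the same 4 genes gave -0.58, -0.59, -0.63 and -0.41. Without the 2-m library 1, all 10 differences remained below 0 but only Cd74 passed (-0.41, limma adjusted p = 0.0390), while H2-Ab1 (-0.45, adjusted p = 0.0906) and Lyz2 (-0.44, adjusted p = 0.0900) did not. Leaving out the 20-m library 2 or the 20-m library 3 also left Cd74 alone. When all 9 libraries were brought to one sum, 0 of the 10 passed, with Cd74 at -0.39 (limma adjusted p = 0.419), H2-Ab1 at -0.50 (adjusted p = 0.318) and Lyz2 at -0.53 (adjusted p = 0.244). When Rn45s was left out of that sum, a setting chosen after seeing the data, the same 3 genes passed, with Cd74 at -0.44 (limma adjusted p = 0.0161), H2-Ab1 at -0.54 (adjusted p = 0.0203) and Lyz2 at -0.58 (adjusted p = 0.0207).

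Over the 9 libraries, Pearson r among Cd74, H2-Aa, H2-Ab1 and H2-Eb1 lay between 0.833 (H2-Ab1 and H2-Eb1) and 0.913 (Cd74 and H2-Aa, H2-Aa and H2-Eb1), and Lyz2 joined them with r from 0.797 to 0.889. Csf1r was nearest to Adgre1 (0.820) and Mrc1 (0.739), and stood at 0.243 with H2-Ab1. Ciita had r of 0.1003 to 0.397 with the 4 class II genes. These values describe 9 libraries that share the age groups and the split between numbers 1, 2 and 3.

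Of all genes tested, the 5 with the highest r to Cd74 were C1qb (0.963), Apoe (0.948), C1qa (0.946), Actg1 (0.932) and C1ra (0.931). C1qa and C1qb, chains of the first complement component made by tissue macrophages, differed by -0.61 (C1qb) and -0.59 (C1qa) on the log2 scale between 20 m and 2 m, and the other 3 by -0.63 (Apoe), -0.36 (Actg1) and -0.46 (C1ra). Since these 5 were chosen for their likeness to Cd74 over the same libraries, a low 20-m level comes with the choice, and no test is given. C1qb had 350, 308 and 385 normalized counts at 2 m, 228, 219 and 233 at 20 m, and 256, 330.1 and 359 at 28 m. Actg1, a cytoplasmic actin made in most cells, and C1ra, a complement protease, are not macrophage markers. The 5 genes nearest to Csf1r were Pdss2 (0.964), Ppp2r5b (0.95), Dstn (0.948), Arhgef40 (0.931) and Slc35a1 (0.929), and none of these 5 passed in any comparison.

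In genes of class II loading and induction, 1 of 6 proteases, 0 of 7 promoter factors and 1 of 6 interferon gamma genes passed between 20 m and 2 m (16.6% of all genes), and 2, 2 and 3 between 28 m and 2 m (13.8% of all genes). The peptide editor subunit H2-DMb1 had 71.3, 49.3 and 59.2 normalized counts at 2 m and 26.2, 42.2 and 31.1 at 20 m, a difference of -0.85 on the log2 scale that did not pass (limma adjusted p = 0.0924). None of the 3 tested among 7 other class II chains and chaperones passed in any comparison. Of 6 loading proteases, the cathepsin Ctsl, which trims the invariant chain in some cells, fell by 0.41 from 2 m to 20 m (limma adjusted p = 0.00369) and was also lower at 28 m (-0.32, limma adjusted p = 0.0159). The asparagine endopeptidase Lgmn was higher at 28 m than at 2 m by 0.47 (limma adjusted p = 0.0151), and the main invariant chain protease of macrophages, Ctss, did not pass (20 m against 2 m, -0.24). Without the 2-m library 1, Ctsl kept its call at 20 m and 0 of the 6 proteases passed between 28 m and 2 m. The same held within the libraries numbered 1 and 2.

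Of 7 factors that bind the X and Y boxes, 0 passed between 20 m and 2 m. Between 28 m and 2 m Rfx5, the DNA-binding subunit of the RFX complex, rose by 0.63 (limma adjusted p = 0.0281) and Nfyb, a subunit of NF-Y, fell by 0.41 (limma adjusted p = 0.0134). Both calls were kept without the 2-m library 1 and lost within the libraries numbered 1 and 2, where 0 of the 7 passed in that comparison. In the interferon gamma pathway, where 6 of 7 genes were tested, the ligand Ifng was at 0 in 8 of 9 libraries, and its receptor chain Ifngr2 fell by 0.34 from 2 m to 20 m (limma adjusted p = 0.00951) and by 0.55 to 28 m (limma adjusted p = 0.000492). Jak2, the receptor's kinase, fell by 0.58 from 2 m to 28 m (limma adjusted p = 0.000788). Within the libraries numbered 1 and 2, Ifngr2 and Jak2 kept their calls at 28 m, while Ifngr2 lost its call at 20 m.

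**Figure D3:**
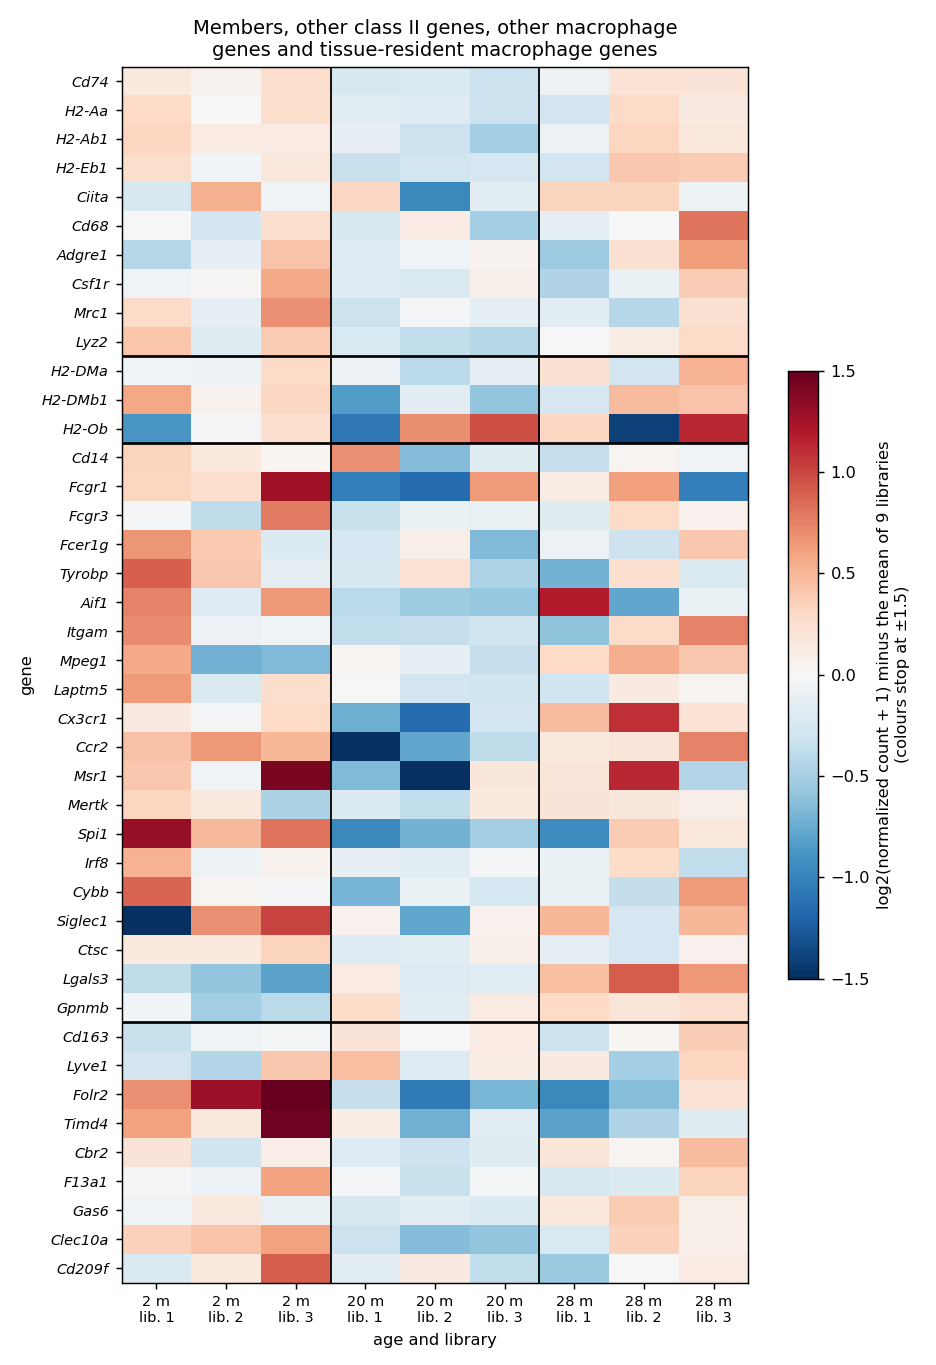
Log2(normalized count + 1) minus the mean of the 9 libraries (colour, stopped at 1.5 either way) for the 10 members and, set off by black lines, most tested genes of the lists of other class II genes, other macrophage genes and tissue-resident macrophage genes (y axis), by library (x axis). The 20-m columns are mostly blue in the members and in the other macrophage genes, where 18 of the 21 tested had a difference from 2 m below 0, while Lgals3 and Gpnmb are reddest at 28 m and blue at 2 m.

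Of 21 other macrophage genes tested, 18 had a log2 fold change between 20 m and 2 m below 0 (52.1% of all genes), 2 fell (7.13% of all genes) and 0 rose (9.42%), at a median of -0.42 on the log2 scale. Ccr2, the chemokine receptor of recruited monocytes, fell by 1.41 (limma adjusted p = 0.00512), from 147, 169 and 152 normalized counts to 37.4, 62.4 and 82.8, and stood at 119.5, 123 and 181 at 28 m. Spi1, which encodes the myeloid factor PU.1, fell by 1.59 (limma adjusted p = 0.0207). Without the 2-m library 1, 17 of 21 remained below 0 and Ccr2 was the single gene of the list that fell, with Gpnmb higher. Within the libraries numbered 1 and 2, 17 of 21 were also below 0 and Ccr2 alone passed.

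Lgals3, the galectin of activated macrophages, had 149, 129 and 111 normalized counts at 2 m, 211, 170.4 and 174 at 20 m, and 266, 366 and 306 at 28 m. It rose by 1.26 on the log2 scale from 2 m to 28 m (limma adjusted p = 0.000645), and Gpnmb, a membrane glycoprotein of phagocytes, by 0.57 (limma adjusted p = 0.0313). They were the 2 of 21 tested that rose between 2 m and 28 m (7.53% of all genes), while 1 fell (6.24%). Of the 21, 15 were below 0 (51.5% of all genes), at a median of -0.23. Within the libraries numbered 1 and 2, Gpnmb lost its call and Lgals3 kept it. Of 9 tested tissue-resident macrophage genes, 7 were below 0 and 2 above between 20 m and 2 m, at a median of -0.28. Folr2 and Clec10a fell (2 of 9, against 7.13% of all genes) and 0 rose (9.42%). Within the libraries numbered 1 and 2, Folr2 alone passed in that comparison. Folr2, the folate receptor of resident macrophages, dropped from 116, 178 and 208 normalized counts to 56.0, 33.7 and 44.1, and was at 36.1, 45.6 and 83.0 at 28 m (28 m against 2 m, -1.64, limma adjusted p = 0.00808).

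Csf1, the main growth factor of the lineage, had 530, 493 and 575 normalized counts at 2 m, 289.6, 321 and 328 at 20 m, and 400.4, 424 and 438 at 28 m, with no overlap between ages. It fell by 0.77 from 2 m to 20 m (limma adjusted p = 0.000917). Il34, the other ligand of Csf1r, did not pass (20 m against 2 m, -0.056).

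Markers of other cells that the muscle samples could hold are given for the same libraries. The 9 neutrophil and marrow genes summed to 159 to 6165 normalized counts at 2 m, 35.5 to 140.0 at 20 m and 77.8 to 151 at 28 m. In 2-m library 1 the neutrophil gene S100a9 stood at 1676, against 5.60 to 35.4 elsewhere, and the granule enzyme Mpo was at 0 in all 20-m and 28-m libraries. The 7 bone and cartilage genes summed to 458 to 3386 at 2 m, 91.1 to 179 at 20 m and 181 to 218 at 28 m, and 3 of the 6 tested fell from 2 m to 20 m (7.13% of all genes). Their part in the class II and macrophage results was not tested. Without that library the differences between 20 m and 2 m went from -0.40 to -0.41 in Cd74, from -0.51 to -0.45 in H2-Ab1 and from -0.54 to -0.44 in Lyz2, and the calls of H2-Ab1 and Lyz2 were lost. The bone and cartilage sums of the other 2-m libraries, 458 and 484, also lay above those of all 20-m libraries.

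The 8 B and plasma cell genes, from cells that also carry class II, summed to 47.6 to 285 normalized counts at 2 m, 63.5 to 168 at 20 m and 139 to 191 at 28 m, and none of the 6 tested passed. Pax5, which defines B cells, was at 0 in 6 of 9 libraries. Of 8 dendritic cell genes, 4 were tested, and the sums were 185 to 206 at 2 m, 238 to 244 at 20 m and 237 to 278 at 28 m, lowest at 2 m, which rested on Zbtb46. Zbtb46, a factor of conventional dendritic cells and endothelium, rose from 31.2, 93.4 and 78.7 normalized counts at 2 m to 140.1, 119.8 and 137 at 20 m (limma adjusted p = 0.0416), a call lost without the 2-m library 1. That was 1 of the 4 tested genes, against 9.42% of all genes that rose. At 28 m Zbtb46 stood at 135, 182 and 174, and it passed between 28 m and 2 m without the 2-m library 1. Within the libraries numbered 1 and 2 it passed in neither comparison. The mean of Xcr1, a receptor of conventional dendritic cells, was 15.3 at 2 m, 6.12 at 20 m and 2.81 at 28 m, that of Flt3 was 9.57, 5.03 and 1.09, and that of Cd209a was 51.9, 39.2 and 33.7. In the other direction, the mean of Clec9a, a receptor of cross-presenting dendritic cells, was 28.4, 34.7 and 37.1, and that of the integrin Itgax was 10.7, 13.6 and 18.9, and 3 of the 4 tested genes were above 0 between 20 m and 2 m. The 7 T cell genes summed to 14.1 to 47.0 in all libraries. Of 6 fibroblast and endothelial genes, Col1a1, a chain of type I collagen, fell from 34207, 11798 and 29946 normalized counts at 2 m to 2258, 1711 and 2170.0 at 20 m (log2 -3.50, limma adjusted p = 2.23e-05) and stood at 1979, 2190.4 and 2657 at 28 m, and the other 5 did not pass in any comparison. Of all genes, 7.13% fell between 2 m and 20 m. The part of Col1a1-expressing cells in the results was not tested. The slow fibre myosin Myh7 was higher at 20 m than at 2 m by 3.06 on the log2 scale (limma adjusted p = 0.00949), and its part was not tested either. It was 1 of 2 fibre genes that rose among 7 tested (9.42% of all genes). Within the libraries numbered 1 and 2, 0 of the 7 passed.

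**Figure D4:**
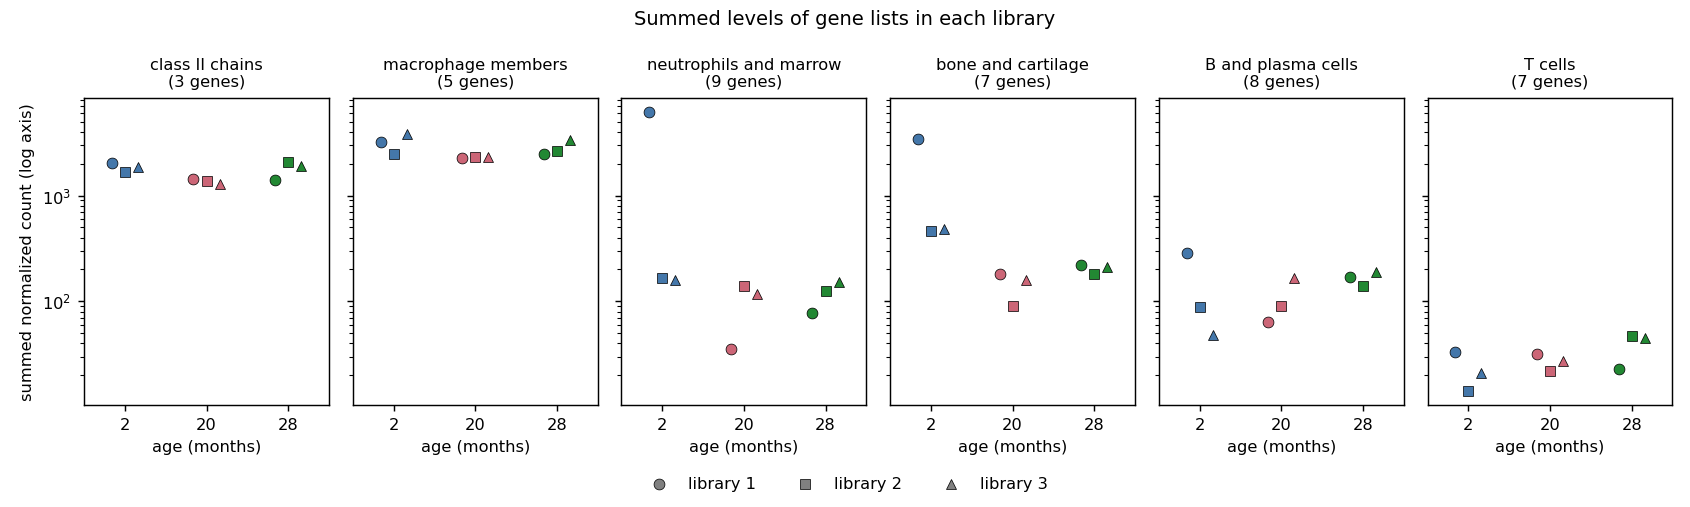
Summed normalized counts (y axis, log scale) of 6 gene lists by age in months (x axis), with 1 point per library and its shape giving the library number. The class II chains lie between 1279 and 1423 at 20 m and between 1669 and 2008 at 2 m, while the neutrophil and marrow list reaches 6165 in the 2-m library 1 alone.

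MBD-seq gave a second readout at the same genes. It counts DNA fragments that carry methylated CpGs, here as the mean normalized count of the 500-bp bins within 1000 bp of the gene start, from 1 pool per age and tissue, so no test between ages was possible and intervals cover counting error alone. The member starts differed widely: in 2-m muscle they ranged from 4.91 for H2-Eb1 and 5.46 for Cd74 to 34.2 for Csf1r and 48.9 for Mrc1, against a median of 8.73 over 21521 protein-coding genes. Mrc1 thus stood above 96.2% and Csf1r above 90.8% of gene starts.

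In muscle no member changed by more than 2-fold between 20 m and 2 m or between 28 m and 2 m, on the log2(mean + 1) scale. Of all gene starts, 3.21% were more than 2-fold higher and 2.55% more than 2-fold lower in the first comparison, and 20.6% and 3.87% in the second. The genes that fell in RNA at 20 m gave no common direction: the start of Cd74 went from 30 reads at 2 m to 49 at 20 m (ratio of normalized counts 1.51, 95% CI 0.941 to 2.47), that of H2-Ab1 from 80 to 62 reads (0.717, 95% CI 0.506 to 1.01), and that of Lyz2 from 121 to 84 reads (0.643, 95% CI 0.481 to 0.856). At 28 m the starts of Cd74 and H2-Eb1 were higher than at 2 m, by ratios of 1.96 (95% CI 1.28 to 3.08) and 2.15 (95% CI 1.38 to 3.46). Those of Csf1r (0.682, 95% CI 0.553 to 0.840), Mrc1 (0.599, 95% CI 0.5002 to 0.717) and Lyz2 (0.591, 95% CI 0.449 to 0.775) were lower. Beyond the start window, over the rest of the gene, Cd74 (-0.86 on the log2 scale) and H2-Eb1 (-0.48) were lower at 28 m than at 2 m. The median of that change over 19108 genes was -0.25, and 2 of 9 members were above 0. Between 28 m and 20 m, 1 member was more than 2-fold lower, Adgre1 (ratio 0.427, 95% CI 0.307 to 0.588), against 0.962% of all gene starts, and 0 were higher, against 18.6%. The median gene start gained 0.24 on the log2 scale between 2 m and 28 m, or 0.66 when libraries were scaled to the same sum.

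In the T cell pools the starts of Cd74, H2-Aa, H2-Ab1 and H2-Eb1 carried fewer fragments at 20 m and 28 m than at 2 m, when H2-Eb1 (11.2) lay above the median of all starts (10.2). H2-Eb1 had 55 reads at 2 m, 2 at 20 m and 15 at 28 m, and its ratio of 0.0436 at 20 m against 2 m (95% CI 0.00515 to 0.165) was the largest fall on the log2 scale among all gene starts in that comparison. Cd74 had 15, 2 and 1 reads, H2-Aa 31, 8 and 13, and H2-Ab1 42, 22 and 9. Of the 10 members, 3 were more than 2-fold lower at 20 m than at 2 m (Cd74, H2-Aa and H2-Eb1), against 3.22% of all gene starts, and 3 at 28 m (Cd74, H2-Ab1 and H2-Eb1), against 4.86%. With bins within 500 bp of the start, H2-Ab1 turned to 0.17 on the log2 scale at 28 m and the count there was 2. No member was more than 2-fold higher in either comparison, against 9.01% and 11.7% of all gene starts. Mrc1 was higher, with a ratio of 1.54 at 20 m (95% CI 1.27 to 1.87). RNA of the T cells was not analysed here.

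Mrc1 had the highest value of the 10 starts in each of the 6 pools. Muscle exceeded T cells more than 2-fold at 1, 3 and 4 member starts at 2, 20 and 28 m, against 6.78%, 7.38% and 22.9% of all gene starts, and 1, 0 and 0 were more than 2-fold lower, against 9.87%, 19.7% and 25.7%. These counts depended on the scaling between the tissues.

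**Figure D5:**
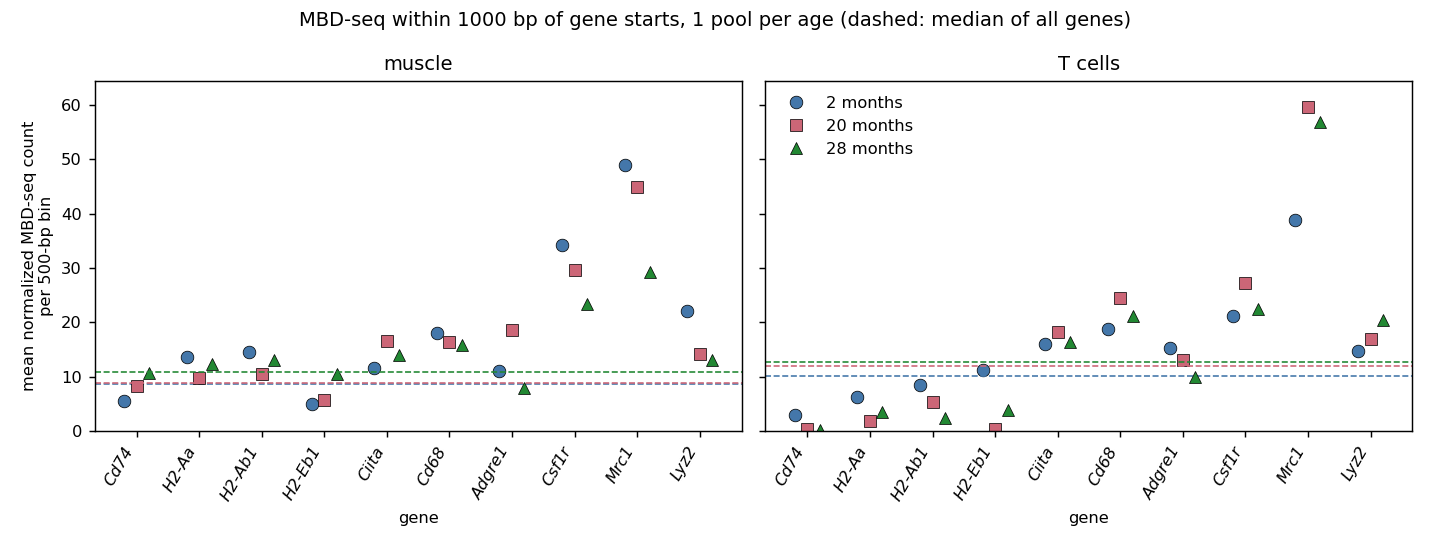
Mean normalized MBD-seq count per 500-bp bin within 1000 bp of the gene start (y axis, from 0) of the 10 genes (x axis) in muscle (left) and T cells (right), with 1 pool per age and dashed lines at the median of all genes. The class II starts of the T cell pools lie below the dashed lines at 20 m and 28 m, and Mrc1 is the highest in every pool.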

How the data were processed

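The authors counted RNA-seq reads per refSeq gene (HTSeq, mm10) and MBD-seq reads per 500-bp bin (Bowtie2, bedtools), and deposited both as a signal: reads divided by a DESeq2 size factor for each library. Their methods name Hisat2 for the RNA reads and the processing notes list TopHat. Whole reads were recovered from all nonzero values (100% within 0.1 read). The 5 HTSeq rows that name no gene, 37.9% to 47.7% of the values of a library, were left out. Depth was 20203833 to 71115244 reads on genes (RNA) and 135254786 to 200456498 reads over bins (MBD).

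The main test was limma 3.58.1 (R 4.3.3) with an intensity trend on log2(normalized count + 1), over the 13178 genes with a mean of at least 10 and all 9 libraries, with age as the single term, two-sided p-values and Benjamini-Hochberg adjustment over all genes. A gene passed at an adjusted p under 0.05. Fold changes are on the log2(value + 1) scale, which understates those of low genes, and p-values measure the spread between the mice of an age. Alternatives included other pseudocounts, filters, scalings, a replicate block, a term for the libraries numbered 3 and leaving out each library. Those with edgeR 4.0.16 and DESeq2 1.42.0 used the recovered reads. Ratios of MBD-seq reads have exact conditional binomial intervals at 95%. The test was checked on simulated data.

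The members and gene lists were chosen with earlier results of these data known. All members are named. From the other lists, named genes are those that passed, at most 4 per list and comparison, by the smallest p, and H2-DMb1, Ctss, Il34, Ifng, Pax5, S100a9, H2-Ea-ps, Xcr1, Flt3, Cd209a, Clec9a, Itgax and Lyz1 were named after their values were seen. Likeness names the 5 genes with the highest r to Cd74 and to Csf1r. This is Pearson r of log2 values over the 9 libraries. Replicate numbers were not treated as pairs: deviations from the age means correlated at 0.109, 0.150 and 0.161 between the libraries numbered 3 and at most 0.0998 between the others. MBD-seq muscle columns do not name the capture round, so none was assigned. RefSeq GRCm38 gave gene starts and promoters, GENCODE vM21 transcript lengths. Results of some listed genes are not reported here.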

Additional observations from a re-analysis of the deposited data

Results flagged for a closer look

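At the starts of 3 genes the muscle pools and the T cell pools moved in opposite directions between 2 m and 28 m, each by more than its counting interval. Cd74 gained 0.86 on the log2 scale in muscle and lost 1.68 in T cells (-1.68), a gap of 2.54. H2-Eb1 gained 0.97 in muscle and changed by -1.29 in T cells, a gap of 2.26. Mrc1 changed by -0.72 in muscle and 0.54 in T cells, a gap of -1.26. The rule was applied to the 10 members alone, so no share of all gene starts stands beside the 3. In muscle the changes of Cd74, H2-Eb1 and Mrc1 exceeded those of 74.9%, 78.5% and 9.74% of all gene starts. In T cells the changes of the same genes exceeded those of 0.818%, 2.26% and 71.9%. With 1 pool per age and tissue the difference was not tested.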

How the results depend on the processing

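Main counts, for 20 against 2 m, 28 against 2 m and 28 against 20 m in turn, were 2181, 1814 and 50 of all genes and 3, 0 and 0 of the members. With all libraries brought to one sum they were 586, 554 and 24 of all genes and 0 members at 20 against 2 m (Cd74 -0.39, limma adjusted p = 0.419). With Rn45s left out of the sum, chosen after seeing the data, they were 1948, 1773 and 54 of all genes and 3, 0 and 0 members, and the 1773 split into 1184 higher and 589 lower, against 992 and 822 in the main test. By the study's rule of a fold over 2 and an unadjusted p under 0.05 they were 681, 677 and 172 of all genes and 0 members. Within the libraries numbered 1 and 2, chosen after seeing the data, they were 1099, 712 and 11 of all genes and 0 members. Fits of only the ages compared called 5 members at 20 against 2 m and 76 genes at 28 against 20 m. At 28 against 20 m DESeq2 called 228 genes, 1 of them a member (Cd74), and the term for the libraries numbered 3 called 103. Leaving out 1 library gave 1081 to 2231, 963 to 1846 and 14 to 88 of all genes and 1 to 5, 0 to 1 and 0 to 1 of the members. Cd74 was called in 9 of 9 such fits, H2-Ab1 in 6 and Lyz2 in 5.

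The labels do not say that a replicate number marks a shared batch, and not every same-numbered pair correlated above 0.1, so the numbers were not used as pairs, although 7 of 9 libraries correlated best with their own number. With the replicate block 3000, 2529 and 138 of all genes passed, and at 20 against 2 m Cd74 (adjusted p = 0.00824, limma), H2-Ab1 (0.0198) and Lyz2 (0.00994) kept their calls.

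Differences near 0 changed sign. Adgre1 at 20 against 2 m was 0.093 after quantile normalization. Within libraries 1 and 2, Cd68 (0.077) and Adgre1 (0.14) turned at 20 against 2 m, H2-Eb1 (-0.046) at 28 against 2 m, and Cd68 (-0.011), Adgre1 (-0.033), Csf1r (-0.072) and Mrc1 (-0.13) at 28 against 20 m. With one sum without Rn45s, Cd74 at 28 against 2 m was 0.0056. Leaving out 1 library moved Adgre1 from -0.22 to 0.21 at 20 against 2 m, from -0.12 to 0.46 at 28 against 2 m and from -0.094 to 0.49 at 28 against 20 m. At 28 against 2 m it moved Cd68 from -0.064 to 0.41, Cd74 from -0.093 to 0.047, Ciita from -0.050 to 0.34, H2-Aa from -0.26 to 0.023, H2-Ab1 from -0.15 to 0.055, H2-Eb1 from -0.075 to 0.27 and Lyz2 from -0.26 to 0.039. At 28 against 20 m it moved Csf1r from -0.16 to 0.24 and Mrc1 from -0.14 to 0.19. The causes were not tested.

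For MBD-seq, member starts past 2-fold with 500 bp either side were 1 in muscle at 20 against 2 m, 2 at 28 against 20 m, and 5 and 5 between tissues at 2 and 20 m, and H2-Ab1 in T cells at 28 against 2 m turned to 0.17. With libraries rescaled to the same sum they were 2 in muscle at 28 against 2 m and 6, 6 and 8 between tissues, and with a pseudocount of 0.25, 1 in muscle at 28 against 2 m. Ciita, with 7 to 39 reads per library, and the T cell class II starts, with as few as 1 read, are limited by depth, and 3 mice per age limit the rest.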
